A study of Mus musculus with 75 samples.

Results

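Genes of sterol and fatty acid synthesis were followed in obstructed mouse kidneys. They were 35 of the 32245 rows of the count table, matched by symbol from lists drawn up with earlier results of these data known: 23 genes of sterol synthesis and its control, and 12 genes of fatty acid synthesis, elongation, and desaturation. Kidneys need cholesterol and fatty acids for their membranes, and tubular cells make a share of both themselves. Sterol synthesis runs from acetyl-CoA through mevalonate and squalene to cholesterol, and fatty acid synthesis runs from cytosolic acetyl-CoA through malonyl-CoA to palmitate, which is then elongated and desaturated. Sterol regulatory element binding proteins (SREBPs, encoded by Srebf1 and Srebf2) are escorted by SCAP from the endoplasmic reticulum when sterols are low, are held there by INSIG proteins when sterols are high, and activate many of these genes together with NF-Y, a factor that binds CCAAT boxes.

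Whole-kidney RNA was sequenced 3 days after unilateral ureter obstruction (UUO), in which 1 ureter is tied off. The opposite, contralateral (CL) kidney gave the reference values. In the ABTAA arm, C57BL6/J or other WT mice were given either IgG (a human IgG Fc control; 8 CL and 8 UUO libraries) or ABTAA, an antibody that binds ANGPT2 and activates TIE2 (7 CL and 7 UUO libraries). In the Veptp arm, VeptpiECKO mice carried floxed Veptp alleles and a tamoxifen-inducible Cre driven by the endothelial Cdh5 promoter (6 CL and 8 UUO libraries), and VeptpWT mice were noninduced wt/lox littermates with the same Cre (7 CL and 8 UUO libraries). In the Pdgfb arm, PdgfbiKO mice carried floxed Pdgfb alleles and an inducible Cre active in the whole body, and PdgfbWT mice were Cre-negative littermates with wt/lox or lox/lox alleles (4 CL and 4 UUO libraries of each). All groups were adult mice that received carprofen for pain relief, the crossed lines were on a mixed background, and WT controls of the Veptp arm were never given tamoxifen. The study used females and males, unevenly in some groups, and sex was not among the labels used here. Some PdgfbWT CL libraries came from sham-operated mice, and the labels do not mark which. The label VeptpWT is carried by more UUO libraries than the study counts mice of that kind. In the Veptp arm 8 CL and UUO pairs share a number in their library names, and the numbers 3, 4, 7, and 8 carry opposite genotype labels in the CL and the UUO kidney. The deviations of these 4 pairs from their group means correlated across genes at 0.426, 0.285, 0.128, and 0.277, against a mean of -0.033 over the 56 pairs with unlike numbers (range -0.417 to 0.364). Whether such libraries come from the same mouse is not given, so every VeptpWT and VeptpiECKO value below rests on the labels as they stand.

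Promoter sequence is printed first because a shared element upstream of these genes is the textbook basis for reading them as a group, and the printed members are ones whose counts fell in UUO kidneys. Letters were searched on both strands of the RefSeq promoter windows of GRCm38.p6 that hold 250 bases before and 50 bases after a gene's start. A window was matched for 19 of the 23 sterol and 9 of the 12 fatty acid genes. The letters TCACNCCAC of a sterol regulatory element stood in 1 of the 19 sterol genes, Hmgcs1, 137 bases upstream of its start, and in 0 of the 9 fatty acid genes, against 1.225% of all 27025 genes with a window (331 genes). The letters CCAAT stood in 17 of 19 sterol genes (89.47%) and in 5 of 9 fatty acid genes (55.56%), against 37.49% of all genes with a window and 40.14% of those tested in the ABTAA arm. A match is a description of letters and not a bound site, and the absence of a match says only that the letters are not in that window. Stretches of 4 sterol promoters are given 5′ to 3′ on the gene's strand, with the sterol regulatory element letters and the CCAAT box (ATTGG where it is on the other strand) in capitals. Hmgcs1, which encodes cytosolic HMG-CoA synthase, holds both elements at chr13:119690171-119690350 on the plus strand. The windows of Mvd (mevalonate diphosphate decarboxylase; chr8:122443423-122443522, minus strand), Ebp (a sterol isomerase; chrX:8193513-8193612, minus strand), and Insig1 (chr5:28071182-28071361, plus strand) were chosen after their letters were seen, to show CCAAT boxes without the searched sterol letters.
Hmgcs1: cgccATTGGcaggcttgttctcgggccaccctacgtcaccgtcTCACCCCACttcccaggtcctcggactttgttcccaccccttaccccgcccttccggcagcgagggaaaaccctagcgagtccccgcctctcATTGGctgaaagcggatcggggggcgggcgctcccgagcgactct
Mvd: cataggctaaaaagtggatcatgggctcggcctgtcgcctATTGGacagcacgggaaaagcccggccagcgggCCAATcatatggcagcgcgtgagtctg
Ebp: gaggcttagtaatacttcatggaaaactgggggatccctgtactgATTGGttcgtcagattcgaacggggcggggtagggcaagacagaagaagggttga
Insig1: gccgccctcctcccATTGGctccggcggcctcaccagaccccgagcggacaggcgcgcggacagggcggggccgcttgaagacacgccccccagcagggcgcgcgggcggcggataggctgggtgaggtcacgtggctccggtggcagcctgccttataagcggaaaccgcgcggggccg
The Hmgcs1 and Mvd stretches each hold CCAAT letters at more than 1 place.

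Libraries held 172827 to 2341800 counts (median 757897), so low members rested on few reads: counts per library were 0 to 57 for Mvk, 0 to 80 for Acacb, 0 to 87 for Lss, 3 to 89 for Tm7sf2, 2 to 89 for Acaca, 2 to 90 for Hsd17b7, 1 to 132 for Idi1, 0 to 175 for Dhcr7, and 1 to 233 for Insig1. Levels are given as counts scaled to a common library total (CPM) after correction by the trimmed mean of M values (TMM), and a gene was called in a comparison where the Benjamini-Hochberg adjusted p of edgeR's quasi-likelihood test over all genes tested in its arm was under 0.05. Sterol members passed the filter on low counts in 22, 23, and 22 cases in the ABTAA, Veptp, and Pdgfb arms, and all 12 fatty acid members passed in each arm. Dhcr7, the last reductase of the pathway, was tested in the Veptp arm alone. Ptprb, which encodes VEPTP, had a median of 61.5 CPM in VeptpWT and 33.7 in VeptpiECKO CL kidneys, with overlapping ranges (log2 difference -0.63, edgeR adjusted p = 1.000). Pdgfb had a median of 8.57 CPM in PdgfbWT and 17.2 in PdgfbiKO CL kidneys, a direction opposite to the label that was not called (log2 difference 0.78, edgeR adjusted p = 1.000), and 55.3 and 37.2 in their UUO kidneys (log2 difference -0.47, edgeR adjusted p = 0.124). Pdgfb rose by log2 2.28 in UUO kidneys of PdgfbWT and by 1.03 in those of PdgfbiKO mice, and this difference, in the direction of the label, was called (-1.26, edgeR adjusted p = 0.0461). Since the levels themselves were not called apart, the knockout is called by its label below. Of 8 markers each, UUO kidneys of IgG mice had fewer transcripts of 7 proximal tubule and 6 distal nephron markers and more of all 8 macrophage markers. In bulk RNA, fewer cells of a type and less RNA per cell cannot be told apart. Summed adipocyte markers ranged from 32.2 to 701 CPM per library, with Fabp4 and Lipe above 0 in 75, Adipoq in 51, and Lep in 9 of 75 libraries. Summed adrenal markers reached 20.1 CPM at most, with Akr1b7 above 0 in 68, Star in 67, Mc2r in 21, and Cyp11b1, the adrenal steroid hydroxylase, in 1 of 75 libraries.

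UUO lowered a large share of the sterol genes in IgG mice and raised none. Of 22 sterol members, 12 fell and 0 rose, where 18.4% of all 9579 genes fell and 16.0% rose, and the median log2 fold change of the list was -0.59 against 0.01 for all genes tested. Of 12 fatty acid members, 4 fell and 0 rose, and the list's median was -0.36. In ABTAA-treated mice 8 sterol and 2 fatty acid members fell and 0 rose, with medians of -0.41 and -0.30 (background 12.5% lower and 12.7% higher). In VeptpWT mice 7 of 23 sterol and 2 of 12 fatty acid members fell and 0 rose (background 8.38% lower and 10.0% higher), with a sterol median of -0.45 and a fatty acid median of -0.07, which became 0.07 without TMM. The sterol count in VeptpWT mice was 2 without TMM and 4 without VeptpWT CL replicate 5. In VeptpiECKO mice 0 of 23 sterol members were called by edgeR's quasi-likelihood test, 7 were lower at an unadjusted p under 0.05, and DESeq2 and edgeR's exact test called 2 and 1, while 1 fatty acid member fell (background 3.47% lower and 4.47% higher; medians -0.34 and -0.35). These counts of the Veptp arm come from a model without the form of library name, described further on. With it as a covariate 11 sterol members were called in VeptpWT mice (10 lower) and 7 in VeptpiECKO mice (7 lower), and 4 fatty acid members fell in each and in ABTAA-treated mice. The shares of all genes called in that model were not counted, so these counts have no background beside them. In PdgfbWT mice 10 of 22 sterol and 5 of 12 fatty acid members fell and 0 rose (background 19.4% lower and 17.9% higher), with a sterol median of -0.45 and a fatty acid median of -0.35, which became -0.08 and 0.02 without TMM. In libraries labelled PdgfbiKO, 1 sterol member fell and 0 of 12 fatty acid members were called, with 0 of these at an unadjusted p under 0.05 and 0 by DESeq2 and by the exact test (background 2.40% lower and 3.94% higher; medians -0.18 and -0.18).

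**Figure D1:**
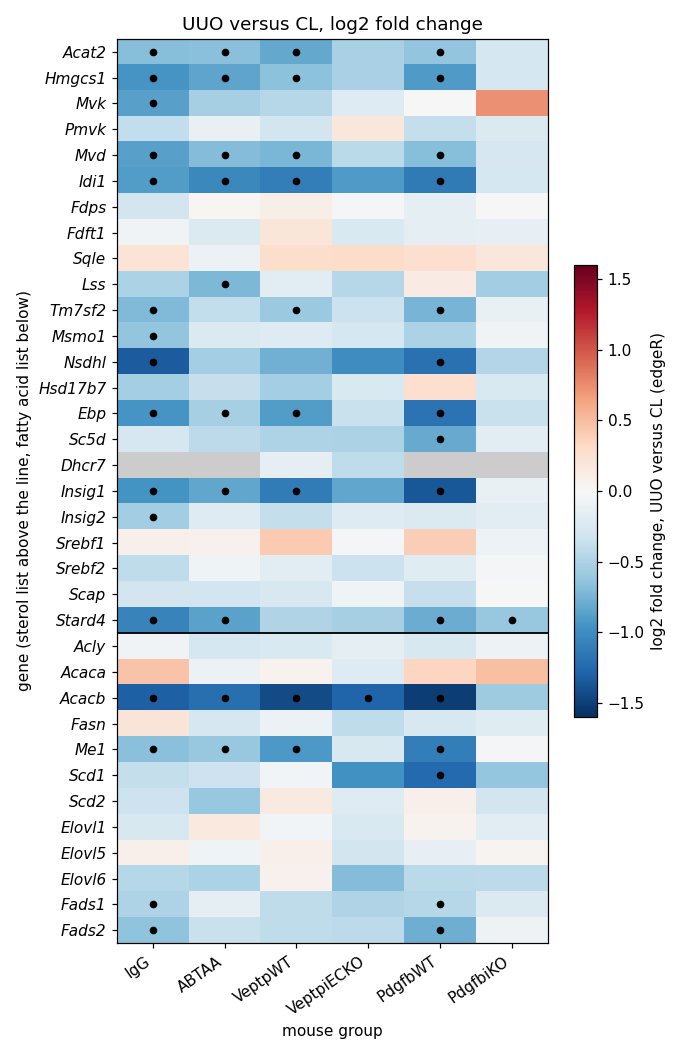
Log2 fold change of UUO over CL kidneys (colour scale, TMM-scaled) for the 35 genes (rows) in the 6 mouse groups (columns), with a dot where edgeR's adjusted p was under 0.05 and grey where a gene was not tested. Every dot lies on a lower value, with 12, 8, 7, 0, 10, and 1 sterol and 4, 2, 2, 1, 5, and 0 fatty acid genes dotted in IgG, ABTAA, VeptpWT, VeptpiECKO, PdgfbWT, and PdgfbiKO mice (with name form added to the model, whose share over all genes was not counted, 11 and 7 sterol and 4 and 4 fatty acid genes in VeptpWT and VeptpiECKO mice).

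Scaling moves these values. Without TMM the median log2 fold change of all genes in UUO rose from 0.01 to 0.21 in IgG, from 0.00 to 0.12 in ABTAA-treated, from -0.01 to 0.13 in VeptpWT, from 0.01 to 0.12 in VeptpiECKO, from 0.04 to 0.40 in PdgfbWT, and from 0.00 to 0.08 in PdgfbiKO mice. The sterol list's median went in the same order from -0.59 to -0.40, -0.41 to -0.28, -0.45 to -0.32, -0.34 to -0.28, -0.45 to -0.08, and -0.18 to -0.10, and the fatty acid list's median without TMM was -0.20, -0.19, 0.07, -0.25, 0.02, and -0.10. The share of falls among all called genes went in the same order from 53.5% to 32.0%, 49.6% to 34.6%, 45.5% to 28.7%, 43.7% to 28.7%, 52.0% to 21.2%, and 37.9% to 21.8%. Of the sterol genes, 8 were then called in IgG (7 lower), 5 in ABTAA-treated, 2 in VeptpWT, 0 in VeptpiECKO, 7 in PdgfbWT (5 lower), and 0 in PdgfbiKO mice, against 12, 8, 7, 0, 10, and 1 with TMM, all lower. Of all genes without TMM, 1123 fell and 2390 rose in IgG and 825 and 1559 in ABTAA-treated mice (9579 tested). The counts were 550 and 1367 in VeptpWT and 244 and 607 in VeptpiECKO mice (11916 tested). They were 1166 and 4336 in PdgfbWT and 156 and 560 in PdgfbiKO mice (10923 tested). Falls below are relative to the bulk of the genes.

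Of the enzymes that carry acetyl-CoA to isopentenyl diphosphate, Acat2, Hmgcs1, and Mvd fell in the same 4 groups of mice: IgG, ABTAA-treated, VeptpWT, and PdgfbWT. Acat2, the cytosolic thiolase of the first step, ranged over 102, 150, and 208 CPM (lowest, median, and highest) in IgG CL and 64.8, 88.7, and 132 in IgG UUO kidneys, a log2 fold change of -0.68 (SE 0.15, edgeR adjusted p = 0.000575). The ranges overlapped. In VeptpWT mice Acat2 had 140, 185, and 207 CPM in CL and 76.9, 89.7, and 136 in UUO kidneys, and here every UUO library was below every CL library (log2 -0.82, SE 0.20). Acat2 also fell in ABTAA-treated and PdgfbWT mice (-0.67 and -0.63), while VeptpiECKO and PdgfbiKO mice gave -0.52 and -0.28 with edgeR adjusted p of 0.138 and 0.378. Hmgcs1, which makes HMG-CoA, had 381, 634, and 939 CPM in IgG CL and 246, 322, and 478 in IgG UUO kidneys (log2 -0.95, SE 0.19, edgeR adjusted p = 0.000151). In ABTAA-treated mice it had 417, 578, and 993 CPM in CL and 297, 350, and 396 in UUO kidneys, with no overlap (log2 -0.84, SE 0.20). Its fold changes in VeptpWT and PdgfbWT mice were -0.65 and -0.91, both called, and in VeptpiECKO and PdgfbiKO mice -0.51 and -0.28, neither called (edgeR adjusted p = 0.0766 and 0.400). The Hmgcs1 exons share up to 458 bases with an antisense gene, and its reads cannot be told from that gene's where strand was not used.

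The next enzymes handle mevalonate itself. Mvd, the decarboxylase that yields isopentenyl diphosphate, had 44.4, 71.3, and 91.4 CPM in IgG CL and 12.1, 41.2, and 54.8 in IgG UUO kidneys (log2 -0.87, SE 0.19, edgeR adjusted p = 0.000439). In VeptpWT mice it had 57.3, 100, and 119 CPM in CL and 30.7, 56.4, and 77.0 in UUO kidneys (log2 -0.73, SE 0.22). In both groups the UUO libraries lay lower with some overlap. Mvd fell by 0.69 in ABTAA-treated and by 0.68 in PdgfbWT mice on the log2 scale, the latter without overlap. Of the kinases upstream, Mvk, mevalonate kinase, was called in IgG mice alone (-0.87, SE 0.29) and ranged up to 0.73 (SE 0.47) in PdgfbiKO mice, and Pmvk, phosphomevalonate kinase, was not called in any group (-0.40 to 0.19). Idi1, the isomerase that follows Mvd, fell in the same groups as Mvd, by 0.90 in IgG, 1.03 in ABTAA-treated, 1.11 in VeptpWT, and 1.13 in PdgfbWT mice, with overlapping ranges in each. Fdps, which joins the isoprene units into farnesyl diphosphate, was called in 0 of 6 groups (-0.29 to 0.10). It shares 197 exon bases on its own strand with another gene model.

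**Figure D2:**
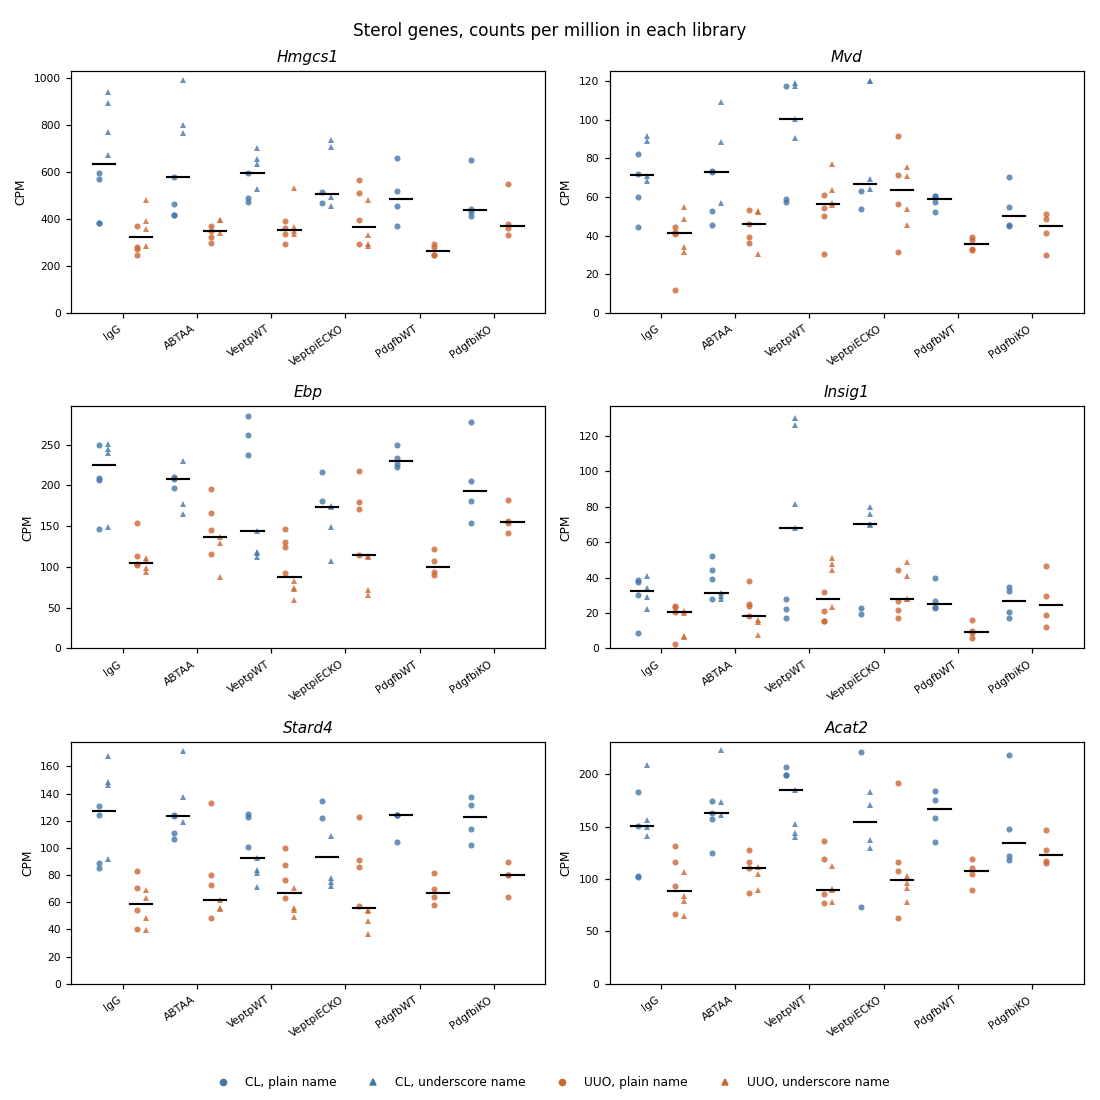
TMM-scaled CPM of Hmgcs1, Mvd, Ebp, Insig1, Stard4, and Acat2 in each library of the 12 groups (circles, plain library names; triangles, names with a _ mark; lines, group medians). Hmgcs1 medians were 634 in CL and 322 in UUO kidneys of IgG mice, and 264 and 370 in UUO kidneys of PdgfbWT and PdgfbiKO mice.

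Between farnesyl diphosphate and lanosterol the genes gave few calls. Fdft1 (squalene synthase) was not called in any group, with log2 fold changes of -0.25 to 0.19, and 774 of its exon bases overlap Ctsb on the opposite strand. Sqle, squalene epoxidase and a rate-controlling enzyme of the pathway, was not called either and had values of -0.10 to 0.29, above 0 in 5 of 6 groups. In IgG mice Sqle had 79.9, 101, and 116 CPM in CL and 78.6, 117, and 142 in UUO kidneys, so the ranges overlapped, and the UUO median lay just above the highest CL library. Lss, which closes the ring to lanosterol, was called in ABTAA-treated mice alone (-0.72, SE 0.24, edgeR adjusted p = 0.0237).

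Among the late enzymes that trim lanosterol to cholesterol, Ebp, Nsdhl, Tm7sf2, Msmo1, and Sc5d fell in at least 1 group of mice. Ebp, the isomerase that shifts the ring double bond, had 146, 225, and 250 CPM in IgG CL and 93.8, 105, and 154 in IgG UUO kidneys (log2 -0.94, SE 0.14, edgeR adjusted p = 2.75e-06). The highest UUO library overlapped the lowest CL libraries. In PdgfbWT mice Ebp had 226, 234, 223, and 249 CPM in the 4 CL and 93.5, 89.9, 107, and 122 in the 4 UUO libraries, with a wide gap between them (log2 -1.18, SE 0.15, edgeR adjusted p = 6.94e-07). Ebp also fell in ABTAA-treated (-0.53) and VeptpWT (-0.89) mice. Nsdhl, a dehydrogenase that removes methyl groups of the ring, fell in IgG (-1.33, SE 0.25) and PdgfbWT (-1.19, SE 0.22) mice, with medians of 63.2 and 23.1 CPM in IgG CL and UUO kidneys, and gave -0.996 in VeptpiECKO mice at an edgeR adjusted p of 0.0504. Tm7sf2, a sterol reductase, fell in IgG (-0.70), VeptpWT (-0.59), and PdgfbWT (-0.74) mice, and 532 of its exon bases are shared with Vps51 on the same strand, so its counts are uncertain. Msmo1, a methylsterol oxidase, was called in IgG mice (-0.63) and Sc5d, a sterol desaturase, in PdgfbWT mice (-0.81). Hsd17b7, a sterol ketoreductase, was not called in any group (-0.55 to 0.27). Dhcr7 gave -0.16 and -0.40 in VeptpWT and VeptpiECKO mice, with SEs of 0.59 and 0.63.

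Among the regulators, the feedback protein Insig1 and the sterol carrier Stard4 moved, and the transcription factors did not pass the test. Insig1, itself an SREBP target that retains SCAP, had 8.88, 32.2, and 41.0 CPM in IgG CL and 2.71, 20.3, and 24.1 in IgG UUO kidneys (log2 -0.95, SE 0.29, edgeR adjusted p = 0.00982). The ranges overlapped at the lowest CL libraries. It fell by 0.83 in ABTAA-treated, 1.12 in VeptpWT, and 1.36 in PdgfbWT mice, and gave -0.83 in VeptpiECKO mice (edgeR adjusted p = 0.225). In VeptpWT libraries with plain names alone the direction turned (log2 0.047), with 16.9, 22.3, and 28.0 CPM in CL and 15.3 to 31.8 CPM in UUO kidneys. Its paralog Insig2 had 58.2, 82.0, and 125 CPM in IgG CL and 46.0, 58.3, and 73.4 in IgG UUO kidneys and was called there alone (log2 -0.56, SE 0.15). Stard4, which carries cholesterol between membranes, had 85.5, 127, and 167 CPM in IgG CL and 39.4, 58.7, and 83.4 in IgG UUO kidneys, without overlap (log2 -1.07, SE 0.19, edgeR adjusted p = 2.13e-05). Stard4 was the 1 sterol gene that fell in libraries labelled PdgfbiKO, with 102, 138, 132, and 114 CPM in CL and 80.1, 63.9, 89.7, and 80.5 in UUO kidneys (log2 -0.61, SE 0.15, edgeR adjusted p = 0.0180). That call was lost without PdgfbiKO CL replicate 2, CL replicate 3, or UUO replicate 2, each of which left 0 sterol genes called.

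Srebf2, which encodes the SREBP that mainly drives sterol genes, had 34.1, 51.2, and 66.6 CPM in IgG CL and 10.4, 40.8, and 52.1 in IgG UUO kidneys (log2 -0.41, SE 0.20, edgeR adjusted p = 0.119). Its values over the 6 groups were -0.41 to -0.02, none called. Srebf1, whose SREBP mainly drives fatty acid genes, had 22.3, 32.1, and 51.3 CPM in IgG CL and 24.5, 31.5, and 62.5 in IgG UUO kidneys (log2 0.09, SE 0.20, edgeR adjusted p = 0.782), and its values ranged from -0.08 to 0.42. Its exons overlap Rai1 on the opposite strand over 109 bases. Scap ranged from -0.36 to 0.01 and was not called. These transcript counts do not measure the cleaved, active forms of the SREBPs.

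**Figure D3:**
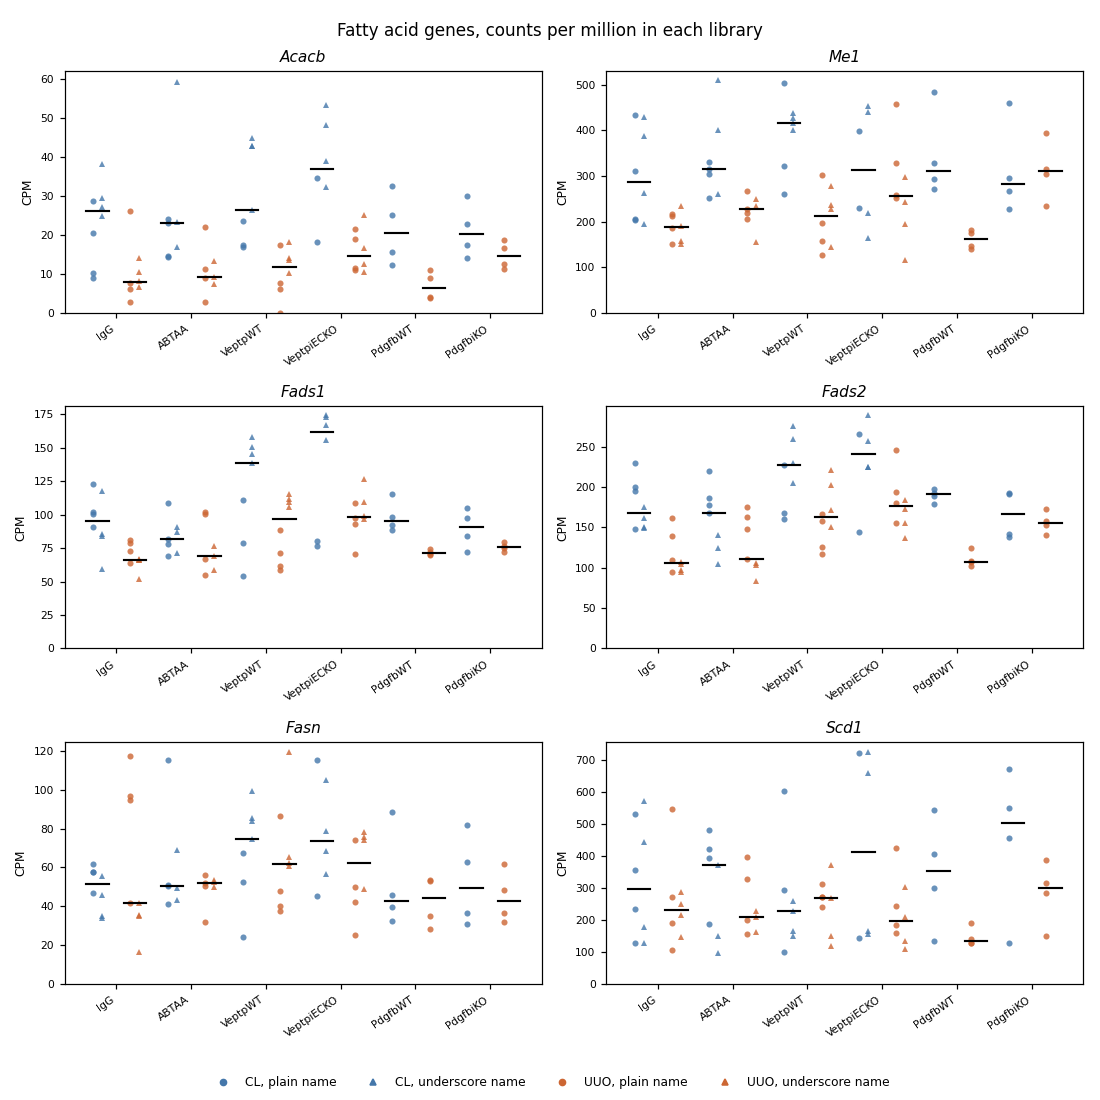
TMM-scaled CPM of Acacb, Me1, Fads1, Fads2, Fasn, and Scd1 in each library of the 12 groups (circles, plain library names; triangles, names with a _ mark; lines, group medians). Acacb medians were 26.1 in CL and 7.86 in UUO kidneys of IgG mice, while Fasn medians were 51.4 and 41.6 and were not called apart.

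In the fatty acid list the calls, all lower, were those of Acacb in 5, Me1 in 4, Fads2 and Fads1 in 2 each, and Scd1 in 1 of 6 groups, and Fasn, Acaca, Acly, and the desaturase Scd2 were called in 0. Acacb, an acetyl-CoA carboxylase at mitochondria whose malonyl-CoA restrains fatty acid import, had 8.88, 26.1, and 38.1 CPM in IgG CL and 2.71, 7.86, and 26.0 in IgG UUO kidneys (log2 -1.30, SE 0.36, edgeR adjusted p = 0.00434). Every UUO library lay below the CL median, with overlap. It was the 1 member called in VeptpiECKO mice, with 18.1, 36.8, and 53.3 CPM in CL and 10.4, 14.6, and 25.1 in UUO kidneys (log2 -1.29, SE 0.32, edgeR adjusted p = 0.0102), and it fell in ABTAA-treated (-1.20), VeptpWT (-1.43), and PdgfbWT (-1.51) mice. Me1, the malic enzyme that supplies NADPH for synthesis, had 195, 287, and 434 CPM in IgG CL and 150, 189, and 235 in IgG UUO kidneys (log2 -0.67, SE 0.17, edgeR adjusted p = 0.00256). In PdgfbWT mice it had 483, 272, 329, and 294 CPM in CL and 181, 174, 139, and 147 in UUO kidneys, with no overlap (log2 -1.10, SE 0.20). Me1 fell in ABTAA-treated (-0.61) and VeptpWT (-0.92) mice as well, and gave -0.25 in VeptpiECKO mice.

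Acly and Acaca, which make the cytosolic acetyl-CoA and malonyl-CoA for palmitate, were not called in any group, at -0.28 to -0.06 and -0.21 to 0.48. Fasn, fatty acid synthase, had 34.1, 51.4, and 61.6 CPM in IgG CL and 16.4, 41.6, and 117 in IgG UUO kidneys (log2 0.20, SE 0.28, edgeR adjusted p = 0.615), and was not called in any group (-0.40 to 0.20). The elongases Elovl1 (-0.26 to 0.15), Elovl5 (-0.29 to 0.09), and Elovl6 (-0.70 to 0.07) were not called either. Fads2, a desaturase of polyunsaturated fatty acids, had 148, 168, and 229 CPM in IgG CL and 94.2, 105, and 161 in IgG UUO kidneys (log2 -0.64, SE 0.16, edgeR adjusted p = 0.00191). It fell by 0.78 in PdgfbWT mice, where the groups did not overlap. Fads1, its partner desaturase, had 59.5, 95.5, and 123 CPM in IgG CL and 51.5, 66.4, and 80.7 in IgG UUO kidneys (log2 -0.49, SE 0.15), and fell by 0.46 in PdgfbWT mice. Scd1, the desaturase that makes monounsaturated fatty acids, was variable between libraries, with 126, 296, and 574 CPM in IgG CL and 107, 232, and 547 in IgG UUO kidneys (log2 -0.39, SE 0.33, edgeR adjusted p = 0.392). It was called in PdgfbWT mice, with 134, 407, 544, and 298 CPM in CL and 127, 141, 127, and 190 in UUO kidneys (log2 -1.24, SE 0.36). The third of these CL libraries also held 530 CPM of summed adipocyte markers, and without the libraries above 400 CPM of such markers the value was -0.93 at an edgeR adjusted p of 0.0571. Scd2, a close paralog that may share reads with Scd1, was not called (-0.61 to 0.14).

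Counts of genes whose UUO and CL libraries did not overlap were read against the same count over all genes. In IgG mice 1 sterol gene lay wholly lower in UUO (Stard4; 5.26% of all genes), as did 1 in ABTAA-treated mice (Hmgcs1; 2.92%) and 1 in VeptpWT mice (Acat2; 2.30%), with 0 fatty acid genes in each. In PdgfbWT mice 11 sterol and 4 fatty acid genes lay wholly lower (17.3%). In libraries labelled PdgfbiKO 2 sterol genes did so, Stard4 and Insig2 (5.13%).

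**Figure D4:**
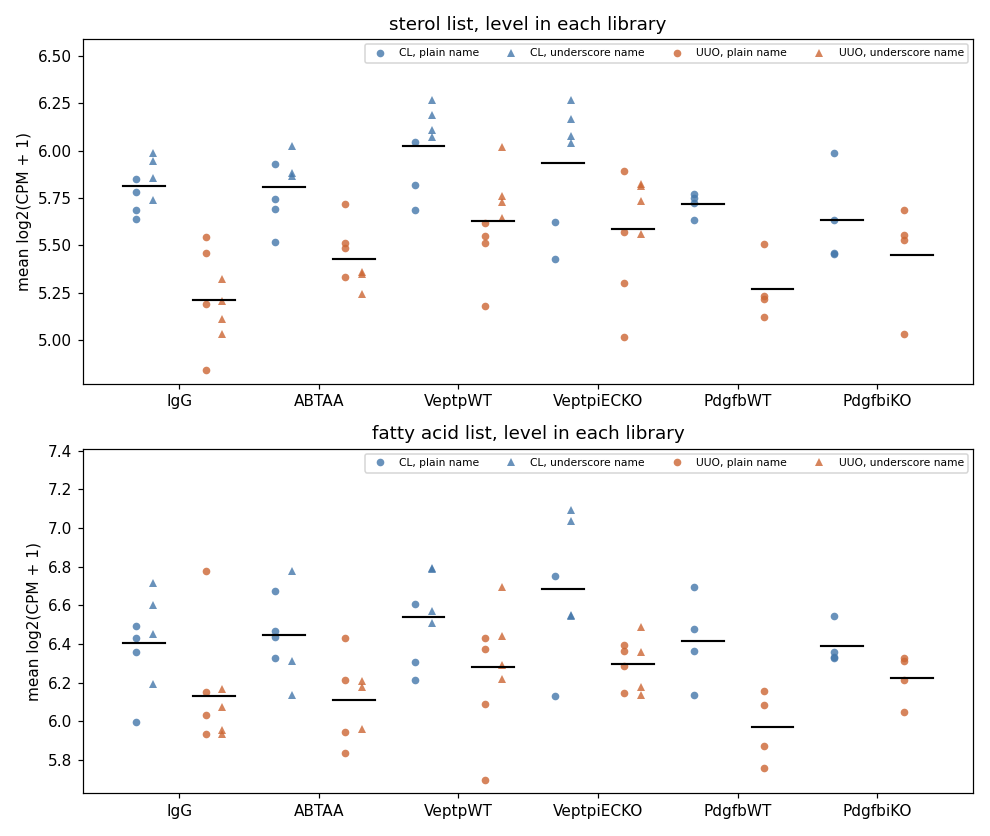
Mean log2(CPM + 1) over the 23 sterol and the 12 fatty acid genes in each library of the 12 groups (points; lines, group means). Sterol means were 5.81 in CL and 5.21 in UUO kidneys of IgG mice, and 5.72 and 5.27 against 5.63 and 5.45 in PdgfbWT and PdgfbiKO mice.

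As a mean over the 23 genes on the log2(CPM + 1) scale, the sterol list stood at 5.81 ± 0.12 (SD, n = 8) in IgG CL and 5.21 ± 0.23 (n = 8) in IgG UUO kidneys, and no UUO library of these reached the lowest CL library (highest UUO 5.54, lowest CL 5.64). ABTAA-treated mice stood at 5.81 ± 0.17 and 5.43 ± 0.16 (n = 7 each), VeptpWT mice at 6.03 ± 0.20 (n = 7) and 5.63 ± 0.24 (n = 8), and VeptpiECKO mice at 5.93 ± 0.33 (n = 6) and 5.59 ± 0.30 (n = 8), each with overlap. The fatty acid list stood at 6.40 ± 0.23 and 6.13 ± 0.28 in IgG mice, with overlap. IgG UUO replicate 2 held the highest fatty acid level of its group, 6.78, together with the highest summed adipocyte markers of all libraries, 701 CPM. Without the libraries above 400 CPM of adipocyte markers, 10 sterol and 4 fatty acid genes fell in IgG mice and 8 and 2 in ABTAA-treated mice. The shares of all genes called in these refits were not counted. Proximal tubule markers, summed, ranged from 4404 to 7136 CPM in IgG CL and from 1845 to 3389 in IgG UUO kidneys, so they too separated the groups. Over IgG, ABTAA-treated, VeptpWT, VeptpiECKO, PdgfbWT, and PdgfbiKO mice, 7, 6, 4, 4, 8, and 4 of 8 proximal tubule markers and 6, 5, 5, 4, 6, and 4 of 8 distal nephron markers fell, and 8, 7, 7, 6, 8, and 5 of 8 macrophage markers rose. Their part in the result was not tested.

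The Pdgfb arm asked whether loss of PDGFB changes the kidney's response to obstruction, and here 5 single genes were higher in UUO libraries labelled PdgfbiKO than in PdgfbWT UUO libraries, at shares of the lists close to that of all genes. With TMM, 3 of 22 sterol genes (Hmgcs1, Ebp, and Insig1) and 2 of 12 fatty acid genes (Me1 and Fads2) were higher and 0 were lower, where 12.0% of all 10923 genes were higher and 6.58% lower, so the counts say nothing particular of the lists. Without TMM 0 sterol genes and 1 fatty acid gene were called, where 667 of all genes were higher and 2378 lower. The median log2 difference over all genes went from -0.02 to -0.28, and the share of lower values among all called genes went from 35.3% to 78.1%. The sterol list's median was 0.23 with TMM and -0.03 without, and that of the fatty acid list 0.04 and -0.22. Ebp had 93.5, 89.9, 107, and 122 CPM in the 4 PdgfbWT and 157, 154, 182, and 142 in the 4 PdgfbiKO UUO libraries, which did not overlap (log2 0.63, SE 0.15, edgeR adjusted p = 0.00469). Hmgcs1 had 247, 245, 294, and 282 CPM against 547, 361, 378, and 330, again without overlap (log2 0.58, SE 0.18, edgeR adjusted p = 0.0240). Insig1 had 10.0, 8.93, 16.3, and 5.88 CPM against 46.7, 19.1, 12.0, and 29.7, and the lowest PdgfbiKO library lay within the PdgfbWT range (log2 1.09, SE 0.34, edgeR adjusted p = 0.0270). The calls of Hmgcs1 and Insig1 were lost when single libraries were left out. Without PdgfbWT UUO replicate 1 or 2, 1 sterol gene was called, and Hmgcs1 was also lost without PdgfbiKO UUO replicate 1 (log2 0.41).

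Of the fatty acid genes, Me1 had 181, 174, 139, and 147 CPM in PdgfbWT and 394, 316, 303, and 234 in PdgfbiKO UUO libraries (log2 0.94, SE 0.20, edgeR adjusted p = 0.00146). Fads2 had 102, 108, 125, and 107 CPM against 153, 158, 173, and 141 (log2 0.50, SE 0.13, edgeR adjusted p = 0.00899). Neither gene's groups overlapped. Acacb had 3.76, 4.17, 11.1, and 8.82 CPM against 16.7, 11.2, 18.8, and 12.5, also without overlap, but missed the threshold (log2 1.01, SE 0.38, edgeR adjusted p = 0.0629). Scd1 had 127, 141, 127, and 190 CPM against 150, 285, 314, and 387 (log2 1.00, SE 0.36, edgeR adjusted p = 0.0506). Without PdgfbWT CL replicate 1, 4 fatty acid genes were called. Groups did not overlap for 3 sterol and 3 fatty acid genes, all higher in PdgfbiKO, where 12.7% of all genes did so, which for the sterol list is a similar share.

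**Figure D5:**
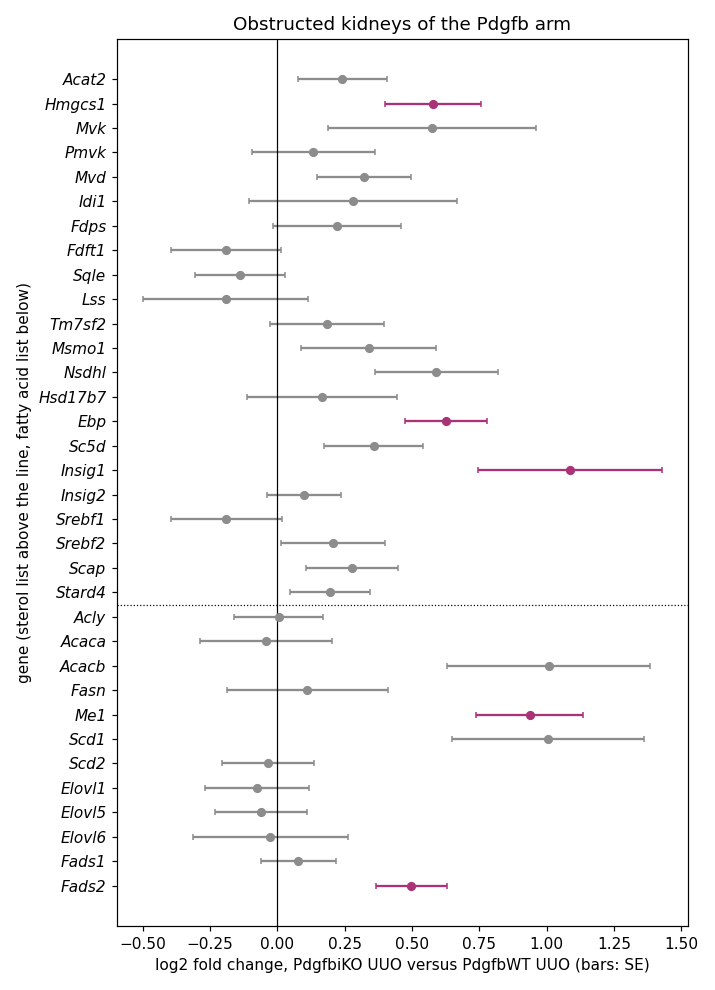
Log2 fold change ± SE of libraries labelled PdgfbiKO over PdgfbWT in UUO kidneys (n = 4 each, TMM-scaled) for the sterol and fatty acid genes tested, coloured where edgeR's adjusted p was under 0.05. Hmgcs1, Ebp, Insig1, Me1, and Fads2 are coloured, at 0.58, 0.63, 1.09, 0.94, and 0.50, and without TMM the list medians of 0.23 (sterol) and 0.04 (fatty acid) became -0.03 and -0.22.

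A test of how the UUO response itself differed between these genotypes called 1 sterol gene, Ebp (log2 0.83, edgeR adjusted p = 0.0152), and 2 fatty acid genes, Me1 (1.08, edgeR adjusted p = 0.0158) and Fads2 (0.69, edgeR adjusted p = 0.0209), each higher in PdgfbiKO, where 6.66% of all genes were higher and 1.90% lower. Me1 had 459, 268, 295, and 228 CPM in PdgfbiKO CL libraries, and UUO changed it there by -0.03 on the log2 scale against -1.10 in PdgfbWT mice. Ebp had 206, 278, 154, and 180 CPM in PdgfbiKO CL libraries, with -0.35 and -1.18. Fads2 had 192, 193, 138, and 142 CPM, with -0.08 and -0.78. Summed proximal tubule markers moved with these genes, at 1354 to 2118 CPM in PdgfbWT and 2618 to 5318 CPM in PdgfbiKO UUO libraries. In this comparison 6 of 8 proximal tubule and 6 of 8 distal nephron markers were higher and 4 of 8 macrophage markers lower in PdgfbiKO. Their part in the result was not tested.

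Neither TIE2-activating condition gave a called difference in these genes. Between ABTAA and IgG UUO kidneys 0 of 22 sterol and 0 of 12 fatty acid genes were called by DESeq2, by edgeR's exact test, or by its quasi-likelihood test. By the quasi-likelihood test 0% of all genes were called, and 1 sterol gene was higher at an unadjusted p under 0.05. Hmgcs1 medians were 322 CPM in IgG and 350 in ABTAA UUO kidneys, and Ebp medians were 105 and 136, with overlapping ranges. The values of 18 of 22 sterol genes were above 0 for ABTAA against IgG, with a median log2 difference of 0.15 against 0.01 for all genes, and for the difference of UUO responses 15 of 22 were, with a median of 0.18 against 0.02. For ABTAA against IgG in UUO, 8 of 8 proximal tubule, 7 of 8 distal nephron, and 1 of 8 macrophage markers were above 0. Their medians were 0.31, 0.45, and -0.23, with 0 called. The part of these markers in the result was not tested. Between VeptpiECKO and VeptpWT UUO kidneys 0 of 23 sterol and 0 of 12 fatty acid genes were called by any of the 3 tests. By the quasi-likelihood test 0 had an unadjusted p under 0.05 and again 0% of all genes were called, while DESeq2 called 1 gene outside the lists. Here 12 of 23 sterol values were above 0, with a median of 0.02, and for the difference of UUO responses 13 of 23 were, with a median of 0.14. The differences between UUO responses were called for 0 members in both arms (0% of all genes), with 1 sterol gene at an unadjusted p under 0.05 for ABTAA and 0 for VeptpiECKO. In CL kidneys 0 members and 0% of all genes were called between treated and control mice in each arm, and the members at an unadjusted p under 0.05 were 1 fatty acid gene between ABTAA and IgG, 0 between the Veptp genotypes, and 1 sterol gene between the Pdgfb genotypes.

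Library names came in a pair of forms, plain (letter and number) and marked (with a _ between them), which the labels do not explain. Both forms occur in each group of the ABTAA and Veptp arms. The forms differed in levels of many genes, 40.4% of all genes tested in the ABTAA arm and 62.4% in the Veptp arm. In the ABTAA arm 5 sterol genes were higher and 4 lower in marked libraries, and 1 and 2 fatty acid genes. Examples are Idi1 (log2 0.79), Sc5d (0.62), and Hmgcs1 (0.55), which were higher, and Srebf2 (-0.51) and Scap (-0.49), which were lower. In the Veptp arm 9 sterol genes were higher and 5 lower, and 5 and 2 fatty acid genes. Dhcr7 differed by 2.82 on the log2 scale there: plain VeptpWT CL libraries had 4.78, 5.60, and 6.74 CPM, and marked ones had a lowest, median, and highest value of 54.3, 58.9, and 71.8. Elovl1 (1.71), Insig1 (1.28), and Nsdhl (1.12) were also higher, and Elovl6 (-1.08), Scd2 (-1.06), Pmvk (-0.88), Ebp (-0.84), and Stard4 (-0.66) lower.

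Within the forms, fitted together in 1 model per arm, the UUO calls were more numerous in marked libraries. In the Veptp arm depth went with the form: plain libraries held 178137 to 858624 counts and marked ones 960023 to 2341800. Form and depth cannot be told apart there. In IgG mice 5 sterol genes were called in plain and 13 in marked libraries, all lower (background 23.8% and 29.4% in either direction), and 2 and 3 fatty acid genes, 1 of these higher. In ABTAA-treated mice the counts were 0 and 10 sterol and 0 and 3 fatty acid genes, all lower (12.6% and 24.8%). In VeptpWT mice they were 2 and 9 sterol genes lower, with 1 higher in marked libraries, and 0 and 3 fatty acid genes lower (9.99% and 27.1%). In VeptpiECKO mice they were 0 and 7 sterol and 0 and 5 fatty acid genes, all lower (0% and 23.3%). The list medians in VeptpiECKO mice were 0.01 in plain and -0.37 in marked libraries for sterol genes, with 11 and 20 of 23 values below 0, and -0.05 and -0.60 for fatty acid genes, with 6 and 11 of 12 below 0. The lower VeptpiECKO medians and counts given above were thus seen in marked libraries and not in plain ones, of which 2 were CL and 4 UUO. The difference of the UUO response between forms was called for 0 members in either arm by edgeR's quasi-likelihood test, against 0% of all genes in the ABTAA arm and 0.436% in the Veptp arm. With the form as a covariate 7 sterol and 4 fatty acid genes fell in VeptpiECKO mice, against 0 and 1 without it, and 11 sterol genes were called in VeptpWT mice (10 lower), against 7. How many of all genes were called with this covariate was not counted, so the rise cannot be read as particular to the lists.

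Further genes of the pathways were counted from separate lists. Over IgG, ABTAA-treated, VeptpWT, VeptpiECKO, PdgfbWT, and PdgfbiKO mice the shares of all genes that fell in UUO were 18.4%, 12.5%, 8.38%, 3.47%, 19.4%, and 2.40%, and the shares that rose were 16.0%, 12.7%, 10.0%, 4.47%, 17.9%, and 3.94%. Of 9 further sterol synthesis genes, 4 fell and 0 rose in IgG mice, among them Cyp51, lanosterol demethylase (log2 -1.65, SE 0.20), and Acat1, a mitochondrial thiolase (-1.51, SE 0.21), and 3, 2, 1, 4, and 1 fell in ABTAA-treated, VeptpWT, VeptpiECKO, PdgfbWT, and PdgfbiKO mice. In UUO kidneys labelled PdgfbiKO, Acat1 (1.32) and Cyp51 (1.01) were higher than in PdgfbWT. Of 13 sterol uptake, storage, and export genes tested in IgG mice, 4 fell, among them the lipoprotein receptor Vldlr (-0.72) and the lysosomal lipase Lipa (-0.42), and 2 rose, the exporter Abca1 (1.79, SE 0.28) and the cholesterol-esterifying Soat1 (0.51). In ABTAA-treated, VeptpWT, VeptpiECKO, PdgfbWT, and PdgfbiKO mice 0, 1, 1, 2, and 0 of these genes fell and 2, 1, 1, 3, and 1 rose. The list's median was -0.21 in IgG mice and, in the same order, 0.18, 0.12, -0.07, 0.02, and -0.04 in the others. The difference of UUO responses between ABTAA and IgG mice was called for 0 of the 13 genes. Abca1 rose in each of the 6 groups (1.05 to 2.49) and was lower in PdgfbiKO than in PdgfbWT UUO kidneys (-1.10). Of 27 further fatty acid and glycerolipid genes tested, 9, 10, 5, 1, 11, and 1 fell and 2, 0, 1, 0, 2, and 0 rose in IgG, ABTAA-treated, VeptpWT, VeptpiECKO, PdgfbWT, and PdgfbiKO mice. In IgG mice the acyltransferases Gpam (-0.94) and Agpat3 (-0.85) and the acetyl-CoA synthetase Acss2 (-0.85) fell. Acss2 (0.77) and Agpat3 (0.58) were among 8 of these genes that were higher in PdgfbiKO than in PdgfbWT UUO kidneys, where 12.0% of all genes were higher.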

How the data were processed

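The authors prepared Smart-seq3 libraries with unique molecular identifiers (UMIs) from whole kidneys, ran each sample in 4 wells, and merged the reads. Per the submitters' processing notes they used STAR 2.7.3a, UMI-tools 1.1.4, and featureCounts of Subread 1.4.6-p5 with build mm10. The sources used here do not give the annotation or the strand setting. The authors deposited raw counts per gene and library, without normalization. All 75 columns were matched to samples by title, and unused columns numbered 0.

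The count models were run with DESeq2 1.42.0, limma 3.58.1, and edgeR 4.0.16 under R 4.3.3, and plots were drawn in Python 3.11.15 with matplotlib 3.10.9. Each arm was fitted alone over its 4 groups (TMM, edgeR's default filter by group, glmQLFit, glmQLFTest), with Benjamini-Hochberg adjustment over all genes tested (9579, 11916, and 10923 in the ABTAA, Veptp, and Pdgfb arms) and a threshold of 0.05. The standard error was the log2 fold change divided by the square root of F. List levels used a pseudocount of 1 CPM. The procedure was tested on simulated data. Totals of 172827 to 2341800 counts limit the precision of low genes. Gene models and exon overlaps came from GENCODE vM21 on GRCm38.

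The members and gene lists were chosen with earlier results of these data known. All 35 members were named. Values by library were given for those called in the most UUO comparisons (up to 6 sterol and 5 fatty acid genes, ties by the lowest adjusted p in IgG mice, which left out Idi1), for Srebf1, Srebf2, Insig1, Insig2, Fasn, and Scd1, and for those called between treated and control UUO kidneys. Up to 4 genes were named of each other list. Sqle, Nsdhl, and Idi1 values beyond this, Dhcr7 by name form, and the Mvd, Ebp, and Insig1 promoters were chosen after their values were seen. Protein sequence was not used.

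A mouse was the study's unit, but which CL and UUO kidneys share a mouse is not in the labels, so p-values measure the spread between these libraries. In ABTAA-treated mice 3 CL and UUO pairs share a number in their names, and deviations of such libraries correlated at 0.160 to 0.387, all over 0.1, so the number was taken to pair them in the replicate block. The 6 pairs with unlike numbers gave -0.263 to 0.099. Deviations were from means of 3 libraries, so like and unlike pairs are not independent. The main fit treated all libraries as unpaired. In the Veptp arm 8 pairs gave 0.0582 to 0.426, and the number was not taken to pair them. Alternatives were no TMM, DESeq2, no filter, edgeR's exact test (the study's test), the compared groups alone, name form, Xist, adipocyte markers, a replicate block, and each library left out.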

Additional observations from a re-analysis of the deposited data

Results flagged for a closer look

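A library far from the rest of its group was found in 18 of 204 group tests, where chance alone gives about 1 in 20. In IgG UUO replicate 2, the library highest in adipocyte markers, the fatty acid list level was 6.78 (others 5.93 to 6.17), Scd1 was 547 CPM (others 107 to 287), and Ebp was 154 CPM (others 93.8 to 113). In IgG UUO replicate 5, Srebf2 was 10.4 CPM (others 33.9 to 52.1). In the ABTAA CL group, Acacb was 59.1 CPM in replicate 5 (others 14.2 to 24.1) and Fasn 115 CPM in replicate 3 (others 41.0 to 68.7). In the ABTAA UUO group, Stard4 was 133 CPM in replicate 2 (others 48.5 to 80.2), and replicate 4 had 15.9 CPM of Srebf1 (others 29.7 to 37.7) and 31.8 CPM of Fasn (others 49.8 to 56.0).

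In the Veptp arm, Scd1 was 602 CPM in VeptpWT CL replicate 2 (others 101 to 293), Srebf1 was 9.03 CPM in VeptpiECKO CL replicate 2 (others 42.9 to 59.8), Hmgcs1 was 531 CPM in VeptpWT UUO replicate 8 (others 292 to 390), and Acat2 was 192 CPM in VeptpiECKO UUO replicate 3 (others 62.8 to 117). In the Pdgfb arm, Stard4 was 105 CPM in PdgfbWT CL replicate 2 (others 124 to 125). Among PdgfbiKO CL libraries, Hmgcs1 was 651 CPM in replicate 1 (others 413 to 442), the fatty acid list level was 6.55 (others 6.33 to 6.36) and Insig2 108 CPM (others 81.7 to 83.9) in replicate 2, and Srebf2 was 79.4 CPM in replicate 3 (others 46.0 to 47.5). Replicate 2 of these also held 413 CPM of summed adipocyte markers.

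By an interaction test in edgeR, the response to UUO differed between PdgfbiKO and PdgfbWT mice for Me1 (log2 difference 1.08, adjusted p = 0.0158), Fads2 (0.69, adjusted p = 0.0209), and Ebp (0.83, adjusted p = 0.0152).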

How the results depend on the processing

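Alternatives were run over all genes tested, and the list counts below cover all members. Single values were compared for the 15 members with values by library, not for the others. Of their 135 values over 9 comparisons 44 were called, and 408 of 449 alternatives of called values kept the call and direction, leaving single libraries aside. Over 1390 alternatives 40 calls were lost, 48 gained, and 1 sign turned: Insig1 in VeptpWT mice was 0.047 in plain-named libraries alone. A further 81 signs changed where neither value was called. Depth limits the members with few counts, among them Mvk, Acacb, Lss, and Idi1. The cause of the following shifts was not tested. Counts are sterol genes called unless fatty acid is named. Calls over all genes were not counted for alternatives other than no TMM and DESeq2, so the other counts have no background beside them. Without TMM they were 5 in ABTAA-treated, 2 in VeptpWT, and 0 in PdgfbiKO mice, and 0 between Pdgfb UUO groups, with fatty acid counts of 0 in VeptpiECKO mice and 1 between Pdgfb UUO groups. With name form as a covariate they were 11 in VeptpWT and 7 in VeptpiECKO mice, with fatty acid counts of 4 in ABTAA-treated, VeptpWT, and VeptpiECKO mice. Plain-named libraries alone gave 5 in IgG, 0 in ABTAA-treated, and 1 in VeptpWT mice, with fatty acid counts of 2, 0, 0, and 0 in IgG, ABTAA-treated, VeptpWT, and VeptpiECKO mice, and marked libraries alone 9 and 4 (fatty acid) in VeptpiECKO mice. VeptpiECKO mice gave 2 by DESeq2, 1 by the exact test, and 5 with Xist as a covariate (fatty acid 2). The fatty acid count between Pdgfb UUO groups was 4 without a filter, by the exact test, and with Xist, and 1 in PdgfbiKO mice without a filter. Without the libraries highest in adipocyte markers, chosen after seeing the data, the PdgfbiKO count was 0.

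The replicate block gave 11 in VeptpWT and 7 in VeptpiECKO mice (fatty acid 3 in the latter), where numbers are shared without a known pairing, and in ABTAA-treated mice, where they pair, it moved no call of a member given in full. In the Veptp arm the block put all plain libraries in the same level. It thus holds the name form as well and is not a check separate from that covariate. Leaving out 1 library gave 10 to 13 (fatty acid 4) in IgG, 6 to 8 (2 to 4) in ABTAA-treated, 4 to 9 (2 to 3) in VeptpWT, 0 to 4 (1 to 2) in VeptpiECKO, 10 to 11 (5) in PdgfbWT, and 0 to 1 (0 to 1) in PdgfbiKO mice. Between UUO groups it gave 0 (0) in the ABTAA and Veptp arms and 1 to 3 (2 to 4) in the Pdgfb arm. The libraries that moved these counts most were VeptpWT CL replicate 5 (4 in VeptpWT mice), VeptpiECKO UUO replicate 3 (4 in VeptpiECKO mice), VeptpiECKO CL replicate 1 (2 there), VeptpiECKO CL replicate 2 (fatty acid 2 there), ABTAA CL replicate 7 or UUO replicate 2 (fatty acid 4), PdgfbiKO CL replicate 1 (fatty acid 1), and those named with the Pdgfb results.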
